A study of Mus musculus with 8 samples.

Results

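The endocannabinoid receptor and enzyme genes are 8 genes chosen by name: the receptor gene Cnr1, the diacylglycerol lipase genes Dagla and Daglb, the phospholipase gene Napepld, and the hydrolase genes Mgll, Abhd6, Abhd12 and Faah. All 8 were present in the count table of 46078 gene entries, and all 8 were among the 15859 genes with enough counts to be tested. They were read in hippocampus of wild-type mice (WT, 4 libraries) and of mice hemizygous for the transgene Tg(Camk2a-cre)2Gsc (Cre, 4 libraries), a line also called CamiCre. All mice were 9 weeks old and on C57BL/6J, and the labels name no floxed allele in either group. The transgene uses regulatory sequence of Camk2a, a gene of excitatory forebrain neurons, to express Cre, and the tissue was taken whole. The labels number the libraries but do not say whether each came from a different animal, so p-values measure only the spread between these libraries.

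Endocannabinoids are lipid messengers that neurons make on demand from membrane lipids. At hippocampal synapses, 2-arachidonoylglycerol (2-AG) is formed in the postsynaptic cell, crosses the cleft backwards and acts on the CB1 receptor of the presynaptic terminal, where it lowers transmitter release. CB1 is densest on terminals of the interneurons that contain cholecystokinin (CCK) and is also present on glutamatergic terminals. Anandamide, the other main ligand, belongs to the N-acylethanolamines and is made and broken down by separate enzymes. Transcripts were measured here, and neither the proteins nor the lipids were.

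The Cre libraries did not differ detectably from the WT libraries in any of the 8 genes. Of the 8 members, 0 were called at an adjusted p under 0.05 (edgeR's quasi-likelihood F test, Benjamini-Hochberg method over all genes; adjusted p = 0.999 for each), against 0.0315% of all tested genes. DESeq2 and limma voom also called 0 members. No member (0 of 8) had an unadjusted p under 0.05 with any of the 3 tools, against 3.50% of all tested genes by edgeR, and 0 members had groups that did not overlap, against 2.31%. The fold changes lay between -0.05 (Cnr1) and 0.02 (Abhd6) on the log2 scale, with 7 below 0 and 1 above. Their median was -0.02, beside 0.0004 over all tested genes. The 95% confidence intervals of the members reached at most from -11.4% (Daglb) to 11.2% (Abhd6), so larger changes than these lie outside the intervals.

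**Figure D1:**
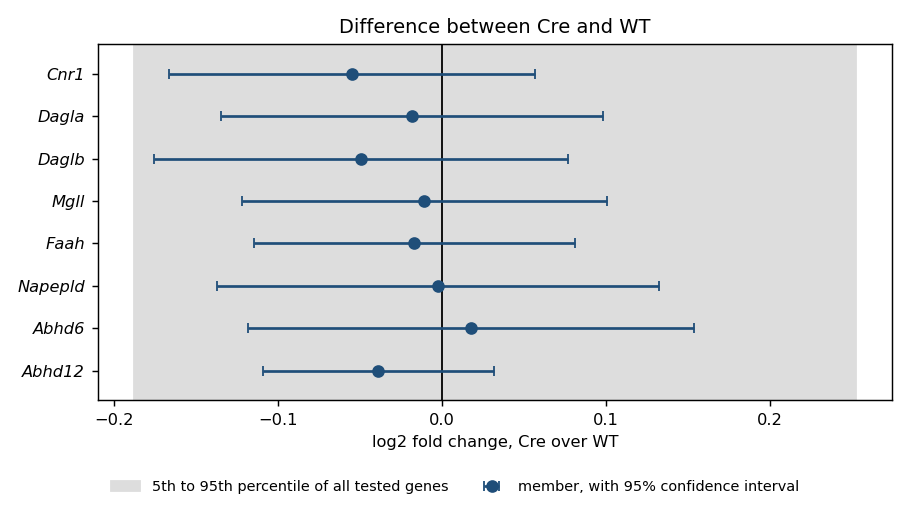
Log2 fold change of Cre over WT for the 8 genes (points) with 95% confidence intervals (bars), beside the range from the 5th to the 95th percentile of all 15859 tested genes (grey, -0.19 to 0.25). Every interval crosses 0 and lies inside the grey range.

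The library totals were 21339996 to 27826871 counts, and the members had 686 to 7828 counts in a library. The transgene label was checked on Syt2, the gene for which the series is titled. Syt2 had 32.8 to 41.5 CPM (counts per 1000000 scaled library counts) in WT libraries and 164 to 188 CPM in Cre libraries. Since the title names this gene, the check covers only the match of the columns to the groups. Listed markers of hippocampal neurons, of CCK interneurons and of other GABA neurons were present in all libraries. Their sums were 7137 to 7601, 371 to 394 and 1165 to 1257 CPM in WT, in that order. In Cre the sums overlapped these, at 7135 to 7605, 380.0 to 387 and 1130 to 1263 CPM. Camk2a alone, with 4480 to 4756 CPM in WT and 4539 to 4845 CPM in Cre, made up most of the first sum. Cck alone, with 221 to 245 CPM in WT and 221 to 234 CPM in Cre, made up most of the second. Reln added 72.2 to 81.6 CPM in WT, while Sncg had only 1.48 to 2.26 CPM there. The second sum thus mostly follows Cck and is no measure of the CCK interneurons by themselves. The 8 microglia markers and the 8 astrocyte markers all had fold changes above 0. Their sums did not overlap (302 to 319 and 4952 to 5316 CPM in WT, 326 to 434 and 5328 to 5979 CPM in Cre). Slc1a2 made up most of the astrocyte sum (2874 to 3093 CPM in WT, 3110 to 3354 CPM in Cre). In the mean of log2 CPM, where each gene weighs the same, the astrocyte groups overlapped (8.03 to 8.10 in WT, 8.08 to 8.35 in Cre). The microglia groups stayed apart by that mean (5.09 to 5.18 in WT, 5.22 to 5.62 in Cre). The 8 oligodendrocyte markers also lay above 0, with overlapping sums (4021 to 4472 CPM in WT, 4043 to 5184 CPM in Cre). Gene by gene, edgeR, DESeq2 and limma voom called 0 of these 24 glial markers. By edgeR, 5 microglia, 3 astrocyte and 2 oligodendrocyte markers had an unadjusted p under 0.05, all higher in Cre, against 2.05% of all tested genes. The groups did not overlap for 3, 2 and 0 of them, in the same order, against 2.31% of all tested genes. Cre replicate 1 had the highest mean level of all 3 glial lists. WT replicate 1 held choroid plexus RNA, with the summed level of 6 markers at 1576 CPM against 122 to 146 CPM in the other WT libraries and 123 to 158 CPM in Cre. No listed marker had 0 counts in all libraries, and the part of these cell types in the members' values was not tested. In bulk tissue, fewer cells of a type and less RNA per cell cannot be told apart.

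The genes lie on 6 chromosomes, and none shares a chromosome with Syt2. Cnr1 lies on chromosome 4 (33924593 to 33948831, plus strand), and Faah on the same chromosome (115967145 to 116017926, minus strand; GRCm38, GENCODE M21). Dagla lies on chromosome 19 (10245265 to 10304877, minus strand), Mgll on chromosome 6 (88724412 to 88828360, plus strand), Abhd6 on chromosome 14 (8002902 to 8056763, plus strand) and Abhd12 on chromosome 2 (150832493 to 150904741, minus strand). Chromosome 5 carries Napepld (21662901 to 21701396, minus strand) and Daglb (143464584 to 143505942, plus strand). The end of Daglb overlaps Rac1, a gene of a small GTPase on the opposite strand, by 2309 bases. The level of Rac1 was 291 ± 5.50 CPM over the WT libraries and 288 ± 8.14 CPM over the Cre libraries (SD, n = 4 each). The strand setting of the authors' counting is not given in the sources used here, so reads of this overlap cannot be assigned with certainty.

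RefSeq windows before an annotated start (GRCm38.p6) were found for 6 of the 8 genes, at 10 starts. The 250 bases before a start held a median of 6 CG dinucleotides over 32851 such windows of mouse genes. Upstream stretches of Cnr1, Mgll and Faah are printed as examples for the receptor gene and the main hydrolase gene of each ligand, at the start farthest upstream of each gene. CG dinucleotides are in capitals, and each stretch ends at the base before the RefSeq start. The Cnr1 stretch is chr4:33924014-33924263 (plus strand), the Mgll stretch chr6:88724162-88724411 (plus strand) and the Faah stretch chr4:116017925-116018174 (minus strand).
Cnr1: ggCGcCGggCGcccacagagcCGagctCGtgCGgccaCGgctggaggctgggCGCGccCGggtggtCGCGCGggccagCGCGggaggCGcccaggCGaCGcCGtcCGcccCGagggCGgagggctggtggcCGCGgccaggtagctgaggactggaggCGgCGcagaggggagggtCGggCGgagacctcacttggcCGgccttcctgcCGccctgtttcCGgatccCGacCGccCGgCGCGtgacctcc
Mgll: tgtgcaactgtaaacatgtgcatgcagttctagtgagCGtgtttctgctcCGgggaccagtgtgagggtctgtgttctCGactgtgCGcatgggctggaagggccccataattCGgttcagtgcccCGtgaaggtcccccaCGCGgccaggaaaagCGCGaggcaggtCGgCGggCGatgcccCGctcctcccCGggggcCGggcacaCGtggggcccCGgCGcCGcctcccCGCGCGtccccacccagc
Faah: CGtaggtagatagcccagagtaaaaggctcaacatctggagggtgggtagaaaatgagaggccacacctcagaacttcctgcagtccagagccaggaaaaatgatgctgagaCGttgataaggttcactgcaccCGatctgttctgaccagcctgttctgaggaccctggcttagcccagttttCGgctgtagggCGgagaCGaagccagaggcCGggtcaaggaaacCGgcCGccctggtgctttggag
Cnr1 had 36 CG dinucleotides and a GC content of 79.2% in this stretch, Mgll 23 and 68%, and Faah 9 and 55.6%, against a median GC content of 52.4% over all windows. The starts of 1 gene also differed: the other windows of Cnr1 had 28 and 5 CG dinucleotides and the other window of Mgll had 40, so these counts give no order among the genes. Of the 10 windows of the members, 4 held GGGCGG (the GC box), against 32.7% of all windows. None of the 10 held TATAAA (the TATA box; 12.4% of all windows) or TGACG (a core of the cAMP response element; 17.8%). Both strands were searched, and the motifs do not overlap one another. A match or its absence describes letters only.

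Levels between genes were compared per kilobase (kb) of annotated exon, with overlapping exons merged. In WT the order was Abhd12 (102 ± 1.76 CPM per kb), Mgll (43.4 ± 1.73), Dagla (37.5 ± 1.59), Cnr1 (37.2 ± 0.50), Abhd6 (23.1 ± 0.71), Faah (20.8 ± 0.88), Napepld (8.14 ± 0.50) and Daglb (3.96 ± 0.19; SD, n = 4 for each). The same order held for the Cre means. Dagla and Cnr1 did not differ beyond their spread in either group. Mgll and Dagla, and also Abhd6 and Faah, were separate in WT but overlapped in Cre. All other neighbours in the order were separate in both groups. Exons of rare transcripts add length without adding many reads. The level of a gene with a long merged exon set, such as Daglb (9.57 kb), may therefore be understated on this scale. The use of single transcripts was not measured.

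**Figure D2:**
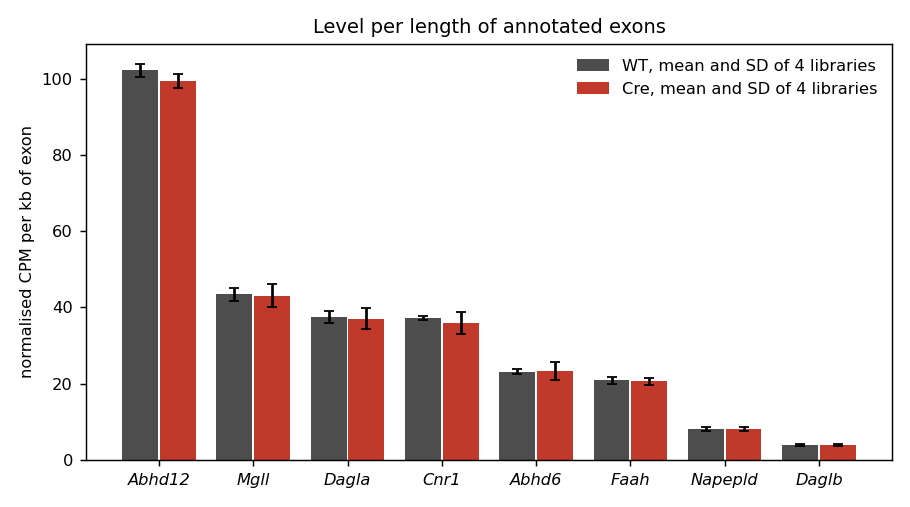
Level of each gene in CPM per kb of merged annotated exon (bars, mean of 4 libraries; error bars, SD) in WT and Cre. Abhd12 stands highest at 102 CPM per kb in WT and Daglb lowest at 3.96, and the order of the means is the same in Cre.

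Cnr1 encodes the CB1 receptor. It had 239, 238, 244 and 237 CPM in WT replicates 1 to 4 and 237, 249, 232 and 205 CPM in Cre replicates 1 to 4. The WT libraries were close together, and Cre replicates 3 and 4 lay below all of them while Cre replicate 2 lay above. The means were 239.6 ± 3.22 and 231 ± 18.6 CPM (SD, n = 4 each), a difference of -3.72% with a 95% confidence interval of -10.9% to 4.02% (log2 fold change -0.05, SE 0.05; exact permutation p = 0.457, 2-sided). Without Cre replicate 4 the log2 fold change was -0.0006, so nearly all of the small difference in means rested on that library.

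Dagla encodes the diacylglycerol lipase that makes most of the 2-AG used at adult synapses. Its level was 212, 206, 219 and 227 CPM in the WT libraries and 225, 213, 190.3 and 224 CPM in the Cre libraries, with the lowest value in Cre replicate 3. The difference was -1.28% (95% confidence interval -8.93% to 7.02%; exact permutation p = 0.800). Daglb encodes the related lipase that is prominent in microglia and other myeloid cells. Its WT libraries had 37.3, 39.8, 38.9 and 35.6 CPM and its Cre libraries 38.9, 38.9, 33.5 and 35.5 CPM, again lowest in Cre replicate 3. The difference was -3.35% (-11.4% to 5.48%; exact permutation p = 0.429), and the groups overlapped in part, with Cre replicates 3 and 4 below all WT libraries and WT replicate 2 above all Cre libraries. Per kb, Dagla made up 90.4% ± 0.74 of the summed level of both lipase genes in WT and 90.6% ± 0.50 in Cre (SD, n = 4 each). This share depends on merged exon length (5.747 kb for Dagla, 9.567 kb for Daglb) and describes transcripts only. Reads of the overlap of Daglb with Rac1 also bear on it.

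Mgll encodes monoacylglycerol lipase, the main enzyme that hydrolyses 2-AG, found in presynaptic terminals and in glia. WT libraries had 218, 210.1, 223 and 231 CPM, and Cre libraries 197, 219, 226 and 233 CPM. The extremes were Cre replicate 1 (lowest) and Cre replicate 4 (highest), so the Cre range enclosed the WT range. The difference was -0.74% (95% confidence interval -8.10% to 7.20%; exact permutation p = 0.886).

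Abhd6 encodes a membrane hydrolase that breaks down 2-AG on the postsynaptic side. Its level was 54.4, 53.3, 53.9 and 57.1 CPM in the WT libraries and 47.6, 56.4, 57.0 and 60.5 CPM in the Cre libraries. As with Mgll, Cre replicate 1 was lowest and Cre replicate 4 highest. The difference was 1.25% (-7.85% to 11.2%; exact permutation p = 0.971). Leaving out Cre replicate 1, the lowest library of both genes, raised the log2 fold change to 0.08 for Abhd6 and 0.04 for Mgll, neither past the threshold. That library also had the highest glial markers, and the part of glia was not tested.

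Abhd12 encodes a hydrolase of lysophosphatidylserine that can also hydrolyse 2-AG, and it is highly expressed in microglia. It had the narrowest interval of the 8 genes. WT libraries had 289.9, 281, 289 and 293 CPM and Cre libraries 277, 283, 276 and 287 CPM, so that 2 Cre libraries lay below all WT libraries and 2 within the WT range. The difference was -2.65% (95% confidence interval -7.29% to 2.23%), with the smallest permutation p of the 8 genes (exact permutation p = 0.0857, 2-sided, where 4 against 4 libraries can reach 0.0286). Shares were taken of the summed level per kb of Mgll, Abhd6 and Abhd12, whose products can hydrolyse 2-AG. Abhd12 made up 60.6% ± 0.50 in WT and 60.0% ± 1.73 in Cre (SD, n = 4 each). Mgll made up 25.7% ± 0.44 and 26.0% ± 0.90, and Abhd6 13.7% ± 0.19 and 14.1% ± 0.87, in the same order. These shares depend on merged exon length (2.823 kb for Abhd12, 5.077 kb for Mgll, 2.365 kb for Abhd6) and describe transcripts only. For each gene the WT shares lay within the range of the Cre shares.

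Napepld encodes the phospholipase D that releases N-acylethanolamines, anandamide among them, from their membrane precursors. WT libraries had 31.2, 29.9, 33.8 and 33.9 CPM, and Cre libraries 31.3, 32.4, 29.7 and 35.2 CPM. The extremes of all 8 libraries were both Cre libraries, replicate 3 and replicate 4, and the difference was -0.16% (-9.06% to 9.62%; exact permutation p = 0.943). Faah encodes fatty acid amide hydrolase, the enzyme that degrades anandamide. Its WT libraries had 167, 154, 169 and 163 CPM and its Cre libraries 168, 165, 152 and 160.5 CPM, so the groups overlapped. The difference was -1.15% (-7.64% to 5.79%; exact permutation p = 0.657).

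**Figure D3:**
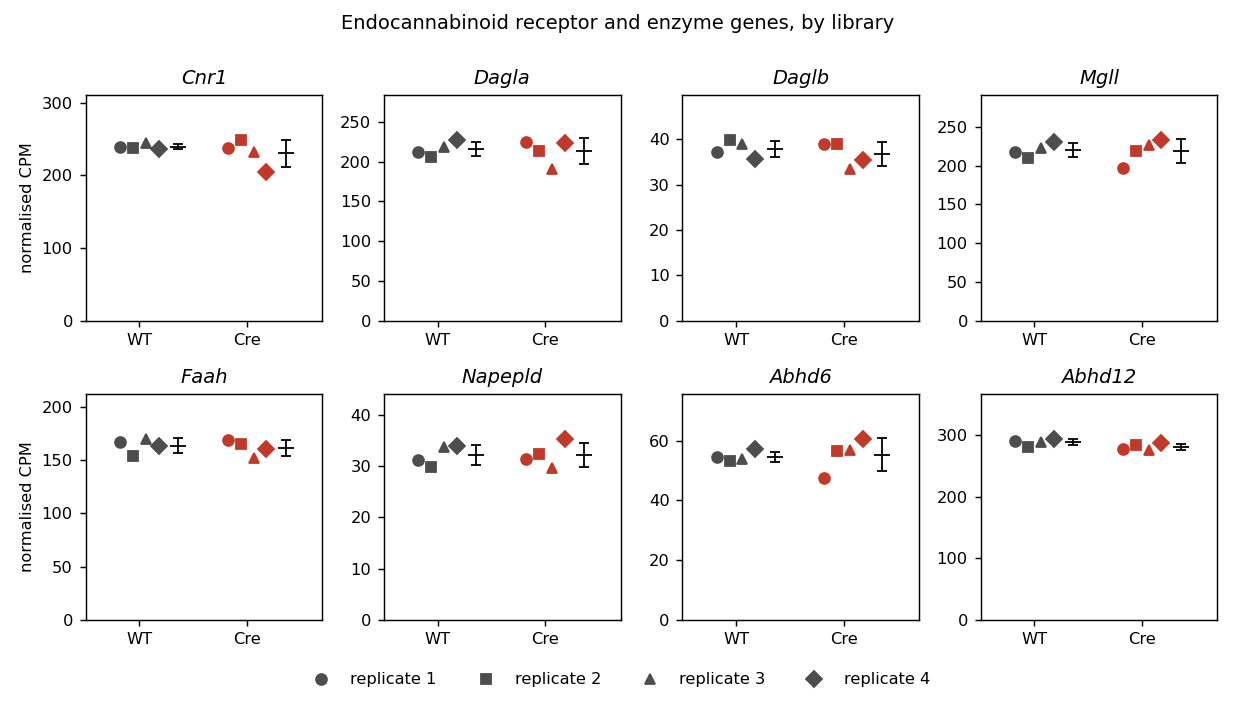
Normalised CPM of each gene in every library (symbols, by replicate number) with the mean and SD of each group of 4 (black). Each axis starts at 0; the WT and Cre libraries overlap in every panel, and Cnr1 is closely grouped in WT (237 to 244 CPM) and wider in Cre (205 to 249 CPM).

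The balance of synthesis and breakdown was described by ratios within each library. The log2 ratio of Dagla to Mgll CPM was -0.04, -0.03, -0.03 and -0.03 in the WT libraries and 0.19, -0.04, -0.25 and -0.06 in the Cre libraries. The group means were alike (Cre minus WT -0.008, SE 0.09). Cre replicate 1 lay above all WT libraries, and Cre replicates 2, 3 and 4 lay below all of them. Replicate 2 was only just below (-0.0417, against -0.0408 for the lowest WT library). The log2 ratio of Napepld to Faah was -2.34 ± 0.06 in WT and -2.33 ± 0.10 in Cre (SD, n = 4 each). That of Dagla to Daglb was 2.51 ± 0.12 and 2.54 ± 0.09, again overlapping. A ratio of CPM between genes depends on their lengths, so only its difference between libraries can be read.

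The members varied more among the Cre libraries than among the WT libraries. The SD of log2 CPM was larger in Cre for all 8 members, against 60.7% of the 8596 genes with a mean log2 CPM of at least 4. For Abhd12 (0.025 in WT, 0.026 in Cre) and Faah (0.062 and 0.066) the SDs were nearly equal. The members share the same libraries, so they are not 8 separate observations of spread. Over the members the SD ran from 0.02 (Cnr1 and Abhd12) to 0.09 (Napepld) in WT and from 0.03 (Abhd12) to 0.15 (Abhd6) in Cre. The median ratio of both SDs was 1.66 over the members and 1.18 over the 8596 genes. Different libraries set the spread: the lowest value fell to Cre replicate 3 in 5 members, Cre replicate 1 in 2 (Mgll and Abhd6) and Cre replicate 4 in 1 (Cnr1). Cre replicate 4 was also the highest library in 3 members (Mgll, Abhd6 and Napepld). With 4 libraries a group an SD is imprecise, and the difference in spread was not tested.

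**Figure D4:**
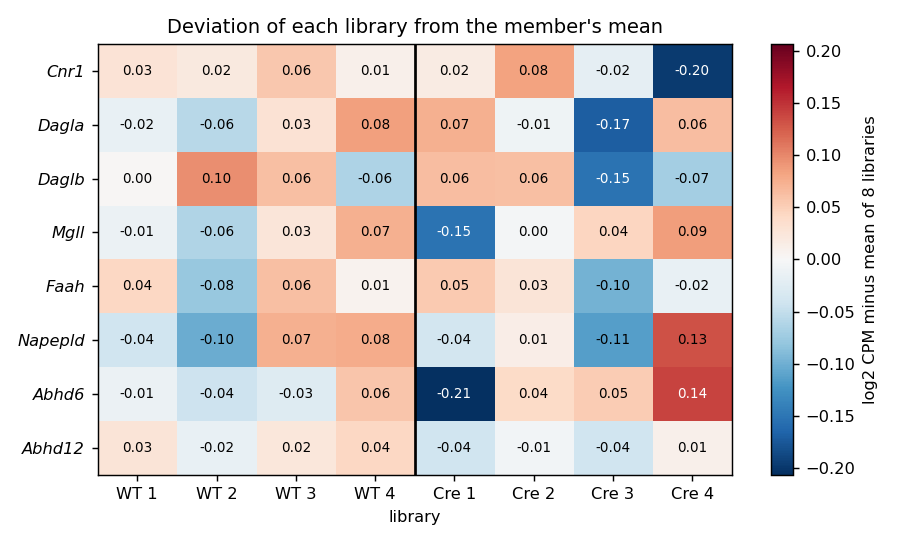
Deviation of each library from the gene's mean over 8 libraries, in log2 CPM (colour and printed value), with WT on the left and Cre on the right. Deviations in Cre reach -0.21 (Abhd6 in replicate 1) and -0.20 (Cnr1 in replicate 4), and no library deviates the same way in all genes.

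After each group's mean was taken off, Mgll and Abhd6 moved most closely together of the 28 pairs of members (Pearson r = 0.95, Spearman rho = 0.93 over 8 libraries). Napepld and Abhd12 followed (r = 0.88, rho = 0.86). Of the 28 pairs, 15 had r above 0 and 13 below, from -0.73 to 0.95. These values are a description over 8 libraries, and all genes of a library share its depth and cell makeup. Of 8595 other genes with a mean log2 CPM of at least 4, those most like Cnr1 over the same libraries were Pcbp3 (r = 0.98) and Capns1 (r = 0.97). Those most like Dagla were Ypel4 (r = 0.98) and Neurod2 (r = 0.97), a transcription factor gene of excitatory neurons. Mgll was nearest to Psmc3 and Pfn2 (r = 0.99 and 0.98), Abhd6 to Chmp3 and Cggbp1 (0.99 for both), and Abhd12 to Camk2a and Hey1 (0.99 for both). Daglb was nearest to Arfgef3 and Cpd (r = 0.98 and 0.97), Faah to Dpp9 and Susd4 (0.99 and 0.98) and Napepld to Fam65a and B4galnt1 (0.99 and 0.98). The highest of so many correlations over 8 libraries is high by selection.

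Of 75 other genes of the pathway, 65 could be tested and edgeR called 0 of them (smallest adjusted p = 0.999). An unadjusted p under 0.05 was seen for 3 (4.62%, against 3.50% of all tested genes). Of these, 2 were higher and 1 lower in Cre, directions that 2.05% and 1.45% of all tested genes had at that rule. The count of 3 depended on single libraries: it was 0 without Cre replicate 1, 5 without Cre replicate 2, 6 without WT replicate 1 and 7 without Cre replicate 4, with 0 passing after adjustment in each. There were 31 fold changes above 0 and 34 below, with a median of -0.002. For 1 gene (1.54%, against 2.31% of all tested genes) the groups did not overlap.

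That gene was Grm5, which encodes the metabotropic glutamate receptor whose activation drives 2-AG synthesis. Grm5 had 341, 354, 355 and 348 CPM in the WT libraries and 311, 341, 325 and 329 CPM in the Cre libraries, a narrow gap in which Cre replicate 2 and WT replicate 1 nearly met. Its log2 fold change was -0.10 (SE 0.04; adjusted p = 0.999 by edgeR). It belongs to 12 genes upstream of the diacylglycerol lipases (receptors, Gq proteins, phospholipases C and Homer scaffolds), of which 9 lay below 0 and 3 above (median -0.03). Plcb1, which encodes the phospholipase C that supplies diacylglycerol in principal neurons, had 284 ± 9.87 CPM over the WT libraries and 272 ± 25.4 CPM over the Cre libraries (SD, n = 4 each).

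Both genes with a higher level at an unadjusted p under 0.05 belong to alternative routes of N-acylethanolamine synthesis. Abhd4, which encodes a lipase of N-acyl phospholipids, had 47.2, 49.2, 49.2 and 48.7 CPM in the WT libraries and 65.9, 52.6, 52.2 and 48.0 CPM in the Cre libraries (0.17 on the log2 scale, SE 0.08). Inpp5d, which encodes the inositol phosphatase SHIP1 of blood and microglial cells, had 12.03, 11.1, 12.2 and 12.1 CPM in the WT libraries and 16.0, 13.6, 12.05 and 13.3 CPM in the Cre libraries (0.22 on the log2 scale, SE 0.09). In both genes Cre replicate 1 was highest, the library with the highest microglia and astrocyte markers, and the part of those cells was not tested. Of the 8 tested genes of these routes, 4 lay above 0 and 4 below (median 0.06). Gde1, which encodes a phosphodiesterase of the same routes, had 152 CPM in both groups.

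CB1 partner genes were level between the groups. Of 6, 4 lay above 0 and 2 below (median 0.01), with Sgip1, whose product holds CB1 at the cell surface, at 206 ± 3.63 CPM over the WT libraries and 199.6 ± 8.69 CPM over the Cre libraries (SD, n = 4 each). Of 12 genes of Gi/o proteins and their effectors downstream of CB1, 7 lay below 0 and 5 above (median -0.006), and Gnai3, a Gi subunit gene, had the smallest p (33.5 ± 1.87 and 35.4 ± 0.84 CPM). All 4 genes of lipid carrier proteins lay above 0 (median 0.09), among them the glial carrier gene Fabp7 (23.2 ± 1.11 and 25.5 ± 1.94 CPM; log2 fold change 0.14, SE 0.06). Of 5 other genes whose products degrade or oxidise endocannabinoids, 3 lay above 0 and 2 below (median 0.05). Naaa, which encodes the lysosomal amidase of N-acylethanolamines, had 31.0 ± 0.81 and 33.2 ± 1.23 CPM there. Of 16 other genes of the ABHD hydrolase family, 6 lay above 0 and 10 below (median -0.005), with the smallest p for Abhd5, the gene of a lipase coactivator (12.3 ± 0.40 and 13.7 ± 1.39 CPM).

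**Figure D5:**
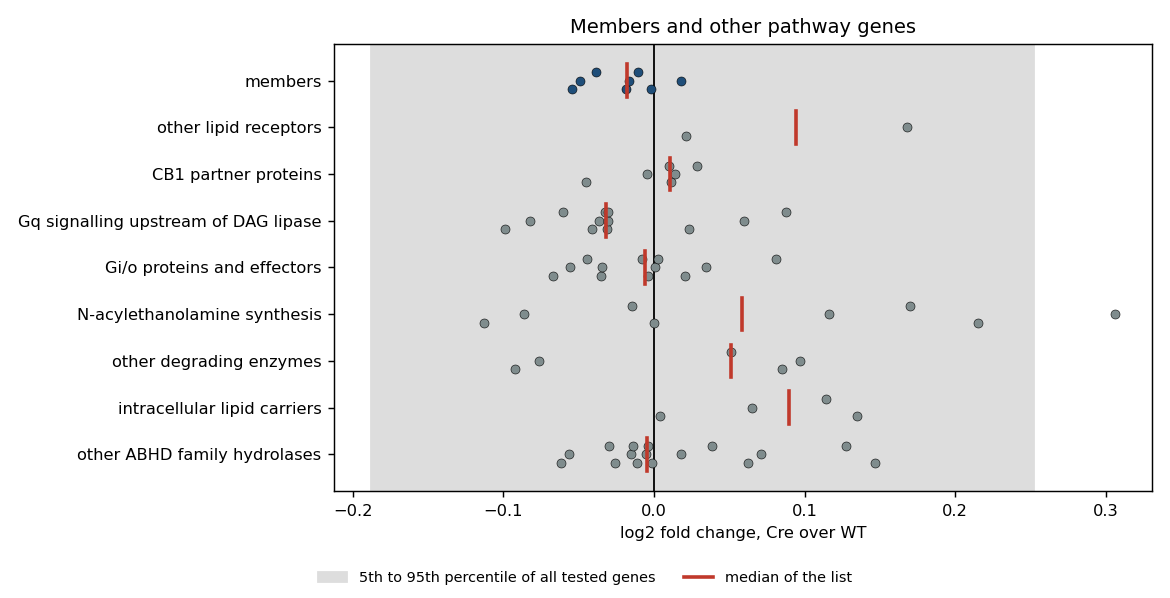
Log2 fold change of Cre over WT for the 8 members (blue) and for each tested gene of the other pathway lists (grey points), with the list median (red) and the range from the 5th to the 95th percentile of all tested genes (grey band). The 8 members lie between -0.05 and 0.02, and 1 gene of the N-acylethanolamine list (Ptpn22, at 0.31) lies outside the band.

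Other receptors for these lipids were scarce. Cnr2, which encodes the CB2 receptor of immune cells, gave 19 counts over the 4 WT libraries and 26 over the 4 Cre libraries, of which 12 were in Cre replicate 1. Gpr55, a gene of a receptor for lysophospholipids, gave 14 counts in each group, with 10 of the Cre counts in replicate 1. Trpv1, which encodes the ion channel that capsaicin and anandamide open, gave 5 and 9 counts. Gpr18 and Gpr119 had 0 counts in all 8 libraries, which allows up to 0.107 to 0.142 CPM in a library (3 counts, counting error only). The nuclear receptor genes Ppara (2.33 ± 0.33 CPM in WT, 2.37 ± 0.21 in Cre) and Pparg (1.24 ± 0.24 and 1.39 ± 0.17) were the 2 of 7 with enough counts to be tested, and neither passed.

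The authors' deposited table gave the members log2 fold changes from -0.05 (Cnr1) to 0.02 (Abhd6), with p-values from 0.377 (Cnr1) to 0.989 (Napepld). It was made from the same libraries and is not independent. The values of the authors' deposited table differed from those computed here by at most 0.001 on the log2 scale.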

How the data were processed

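Poly(A) RNA of hippocampus was sequenced as paired reads of 150 bases in 1 lane, per the labels' protocols. The authors deposited whole-number counts per gene and library, not normalized. STAR 2.6.1d, featureCounts and edgeR 3.11 with GRCm38 are named per the submitters' processing notes. Which annotation release and strand setting were used is not given in the sources used here. The authors also deposited a table with a log2 fold change and a p-value per gene. Whether that p-value is adjusted is not stated. It differed between the members (0.377 to 0.989), unlike the adjusted p computed here by edgeR (0.999 for each), so it reads as unadjusted.

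Genes were filtered with filterByExpr (minimum count 10, minimum total 15) and scaled by TMM (trimmed mean of M values). The test was edgeR's quasi-likelihood test (edgeR 4.0.16, R 4.3.3, no covariate, 2-sided) on all 15859 genes, with Benjamini-Hochberg adjustment and a threshold of 0.05. It was also run on simulated counts, whose result is not given here. The simulation held no library of differing tissue makeup, so it does not cover libraries such as WT replicate 1. Single genes were also compared by an exact permutation test over the 70 ways to label the libraries on log2 CPM (prior count 2). CPM are per 1000000 scaled library counts. Library totals of 21339996 to 27826871 counts gave the members a median SE of 0.05 on the log2 scale.

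Alternatives were RLE scaling, library totals only, no filter, DESeq2 1.42.0, limma 3.58.1 voom, a replicate block and leaving out libraries. Pairs of libraries within groups were compared to look for copies of the same library. Every pair differed by more than sampling noise (chi-square per degree of freedom 3.38 to 10.0), so none was dropped as a copy. That check does not bear on the choroid plexus RNA of WT replicate 1, and all 8 were kept. The members and lists were chosen with earlier results of these data known. Named genes are the members, and in each pathway list those with an unadjusted p under 0.05 (up to 4) or else the 1 with the smallest p. For each member the 2 genes with the highest Pearson r were named, among genes with a mean log2 CPM of at least 4. Syt2 was named as the check of the label. Rac1, Plcb1, Gde1, Ppara and the genes too low to be tested were chosen after their values were seen. Of the listed symbols, 5 were matched through RefSeq synonyms. Marker lists of oligodendrocyte precursors (median log2 fold change 0.02), endothelium and pericytes (0.03), thalamus and habenula (0.12) and striatum (0.09) were also read. They held 5, 6, 6 and 6 tested genes, in that order. By edgeR, 0 of these passed the threshold and 2 had an unadjusted p under 0.05, against 3.50% of all tested genes. DESeq2 and limma voom also called 0, with 1 and 2 genes at an unadjusted p under 0.05.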

Additional observations from a re-analysis of the deposited data

Results flagged for a closer look

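A library far from the other 3 of its group was looked for in 88 groups of 4, for the members, the named genes, the markers with the smallest p and the ratios. By chance about 1 group in 20 is picked out in this way. None of the 8 members and none of the 3 ratios was picked out in either group, and 7 other groups were.

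WT replicate 1 had 878 CPM of Ttr against 1.70 to 8.75 CPM in the other WT libraries, and 24.5 CPM of Clic6 against 0.33 to 0.74. Both are choroid plexus genes. Inpp5d was lowest in WT replicate 2, at 11.1 CPM against 12.03 to 12.2. Pdgfra, of oligodendrocyte precursors, was lowest in WT replicate 4, at 55.9 CPM against 61.1 to 61.8. Lef1, a marker of thalamus and habenula, was lowest in the same library, at 2.92 CPM against 4.11 to 4.19. Flt1, of endothelium, was highest in Cre replicate 1, at 54.8 CPM, where the others had 47.8 to 48.9. Rgs9, a striatal gene, was highest in WT replicate 3, at 14.1 CPM against 12.2 to 12.5.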

How the results depend on the processing

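Over 15 alternatives, 0 members passed the threshold and 0 had an unadjusted p under 0.05 in each. The members' log2 fold changes ran from -0.09 to 0.08 and their adjusted p from 0.891 to 0.9999. Of 120 such values, 107 kept their direction and 13 changed sign around 0, the cause of which was not tested. With library totals only, Napepld stood at 0.00415. With WT replicate 1 and Cre replicate 1 left out together, an alternative chosen after seeing the data, Mgll stood at 0.0297. Leaving out 1 library at a time gave -0.0462 to 0.0324 for Dagla, -0.0404 to 0.0360 for Mgll, -0.0441 to 0.0128 for Faah, -0.0482 to 0.0361 for Napepld and -0.0257 to 0.0841 for Abhd6. Cnr1 (-0.09 to -0.0006), Daglb (-0.08 to -0.006) and Abhd12 (-0.05 to -0.03) stayed below 0 in those 8 fits. Over all genes the count past the threshold was 5 as reported, 4 to 6 with 1 library left out and 7 with no filter or with DESeq2. With the replicate number as a block it was 6 genes and 0 members. The numbers were not taken to pair the libraries, because same-numbered libraries correlated at 0.24, -0.21, -0.05 and 0.19 in their deviations from the group means, and not every library correlated best with its own number. A library left out of 4 removes much of what sets a small difference, and depth limits the genes with few counts such as Cnr2.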
